A study of Mus musculus with 135 samples.

Results

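The BCL2 family sets how readily a cell undergoes mitochondrial apoptosis, and 10 of its genes were described in single haematopoietic stem cells (HSCs) of a young and an old mouse. The genes were listed by name and not by their values, and all 10 were among the 15181 genes of the deposited count table. They comprise 3 antiapoptotic genes (*Bcl2*, *Bcl2l1*, which encodes BCL-XL, and *Mcl1*), 2 effectors (*Bax* and *Bak1*) and 5 BH3-only genes (*Bid*, *Bbc3*, which encodes PUMA, *Bcl2l11*, which encodes BIM, *Pmaip1*, which encodes NOXA, and *Bad*). Only the first 3 promote survival, so the list holds genes of opposing function. The effectors BAX and BAK form pores in the outer mitochondrial membrane and release cytochrome c. The antiapoptotic proteins hold the effectors and the BH3-only proteins in check, whereas BH3-only proteins relay stress signals by binding the antiapoptotic proteins or by activating the effectors. MCL1 in particular is known to be needed for the survival of HSCs, and much of its control, like that of BAX and BAD, acts on the protein, which was not measured here.

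The cells were sorted from bone marrow of C57BL/6 mice as 7AAD- Lin- Sca-1+ c-Kit+ CD150+ CD48-, and both ages carried the Vwf-eGFP transgene, which reports activity of the von Willebrand factor gene; this sort did not select on eGFP. Young meant 2 to 3 months and old 20 to 25 months, and the labels name no treatment for either group. Of 61 young and 74 old cells captured on a microfluidic chip and sequenced from full-length cDNA, 52 young and 62 old passed the quality limits of the study and were used here. Each age was 1 mouse in 1 experiment, so age, mouse, sex and experiment cannot be told apart, no test between ages was possible, and all intervals below cover counting error only.

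A level is the mean over cells of log2(CPM + 1), where CPM is the count scaled to 1000000 counted reads in the cell. A difference is the old level minus the young one. A cell was said to express a gene when log2(CPM + 1) was above 2, which is above 3 CPM. Counted reads per cell ran from 273236 to 5688706, with medians of 2798990 in young and 2116024 in old cells, and the median cell expressed 4115.5 and 3901.5 genes. At least 1 of 6 stem cell markers (*Kit*, *Ly6a*, *Slamf1*, *Procr*, *Hlf* and *Mecom*) was expressed in all 52 young and 62 old cells. Singly they varied: *Kit* was expressed in 49 young and 61 old cells, *Hlf* in 49 and 55 and *Mecom* in 43 and 40. *Ly6a* was expressed in 28 and 43, *Procr* in 11 and 24 and *Slamf1* in 9 and 15. The ages also differed in 3 ways that move with every comparison below and whose part in it was not tested: at least 1 of the mitotic entry genes *Ccna2*, *Ccnb1*, *Cdk1* and *Cdc25c* was expressed in 27 of the 52 young and 13 of the 62 old cells, the summed CPM of 6 immediate-early genes had medians of 2759 and 7928, and Y-linked transcripts were expressed in 2 young and 58 old cells and *Xist* in 50 and 8.

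The proximal promoters of the gene expressed in most cells (*Mcl1*), of the gene with the largest difference between ages (*Bcl2*) and of a gene that was barely detected (*Bak1*) are given as examples. The 250 bases before a RefSeq start are given 5′ to 3′ on the strand of the gene, in GRCm38.p6. They lie at chr3:95658471-95658720 (plus strand) for *Mcl1*, chr1:106714291-106714540 (minus strand) for *Bcl2* and chr17:27028628-27028877 (minus strand) for *Bak1*. The *Mcl1* window lies inside the gene span (95656944 to 95663179), so its start is not the first base of that span. Capitals mark the GC box GGGCGG, read on either strand.
Mcl1: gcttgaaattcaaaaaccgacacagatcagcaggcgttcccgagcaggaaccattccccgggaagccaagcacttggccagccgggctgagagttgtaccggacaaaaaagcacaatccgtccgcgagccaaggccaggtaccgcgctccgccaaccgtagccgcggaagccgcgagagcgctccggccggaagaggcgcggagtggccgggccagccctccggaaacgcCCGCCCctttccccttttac
Bcl2: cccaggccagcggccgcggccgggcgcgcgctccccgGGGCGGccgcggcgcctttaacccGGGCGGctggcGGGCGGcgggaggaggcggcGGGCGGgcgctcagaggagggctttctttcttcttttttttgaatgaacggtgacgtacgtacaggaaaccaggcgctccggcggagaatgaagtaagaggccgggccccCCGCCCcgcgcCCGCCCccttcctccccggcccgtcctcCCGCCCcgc
Bak1: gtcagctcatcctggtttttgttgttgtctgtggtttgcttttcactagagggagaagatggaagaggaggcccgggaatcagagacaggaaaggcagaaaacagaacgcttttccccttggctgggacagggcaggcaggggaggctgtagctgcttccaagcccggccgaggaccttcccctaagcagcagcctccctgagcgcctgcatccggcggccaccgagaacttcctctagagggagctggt
The *Bcl2* stretch held 7 GC boxes, 36 CpG and 74.8% G and C. *Mcl1* held 1 GC box, 26 CpG and 64.4%, and *Bak1* held none, 8 CpG and 58.4%. None of the 3 held the CCAAT box (CCAAT on either strand). Over the same window at all 32851 RefSeq starts, the median was 6 CpG and 52.4% G and C, 32.7% held a GC box and 33.8% a CCAAT box. These matches describe letters only, and no binding was measured. They did not follow detection: *Bbc3*, also barely detected, held up to 7 GC boxes and 37 CpG at its 3 starts, and *Bcl2l1*, high where expressed, held no GC box at its 3 starts.

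Among the antiapoptotic genes, *Mcl1* was the family member expressed in most cells at both ages, although *Bcl2* had a read in more cells. Its level was 5.63 in young and 5.92 in old cells, a difference of 0.29. The lowest cell was at 0, the median at 78.2 CPM and the highest at 1330 CPM in young cells, and in old cells these were 0, 132 and 1662 CPM. The ages overlapped over nearly their whole range, as the plot of levels by cell shows. *Mcl1* was expressed in 41 of the 52 young cells (78.8%, exact Clopper-Pearson interval 65.3 to 88.9) and 47 of the 62 old cells (75.8%, 63.3 to 85.8). Hence the shares were close while the middle of the distribution lay higher in old cells, and 24 young (46.2%) and 35 old cells (56.5%) exceeded 100 CPM. Thinned to 250000 reads, where 1 read is worth 4 CPM, 38 young (73.1%) and 50 old cells (80.6%) were above the limit, so the order of the ages in share was not stable to depth. Cells without any counted read of *Mcl1* numbered 5 young and 6 old.

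*Bcl2*, the founding survival gene of the family, had the largest difference of the 10. Its level was 3.17 in young and 4.01 in old cells, a difference of 0.84. It was expressed in 22 young cells (42.3%, 28.7 to 56.8) and 39 old cells (62.9%, 49.7 to 74.8), and the intervals overlapped. After the same thinning, 26 young and 42 old cells were above the limit, so the order of the ages was the same at equal depth. A low trace of *Bcl2* was present in nearly every cell: 49 of the 52 young and 61 of the 62 old cells had at least 1 read, and the medians were 1.98 and 5.06 CPM. The limit of 3 CPM therefore fell inside this trace, and at a limit of 15 CPM the shares were 15 of 52 (28.8%, 17.1 to 43.1) and 24 of 62 (38.7%, 26.6 to 51.9). Reads were uneven as well. A single young cell, at 3526 CPM, held 6896 of the 20428 young reads (33.8%), whereas the highest old cell stood at 797 CPM with 2135 of 14388. The log2 ratio of summed counts, old over young, was accordingly −0.30, and it was 0.28 without that young cell and 0.08 without the highest cell of each age. Mean CPM over cells was also lower in old cells, at 152 in young and 116 in old. *Bcl2* was thus higher in old cells by level, median and share, but not by mean CPM or summed counts.

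*Bcl2l1* was expressed in few cells but strongly there. It was at 0 in 33 young and 33 old cells, and it was expressed in 11 young (21.2%, 11.1 to 34.7) and 15 old cells (24.2%, 14.2 to 36.7). In expressing cells the median was 311 CPM in young and 290.0 CPM in old, and the highest cells stood at 859 and 1519 CPM. Its level was 1.54 in young and 2.05 in old cells, a difference of 0.51. The log2 ratio of summed counts was 0.82, and it was 1.31 without the highest young cell, 0.41 without the highest old cell and 0.90 without both. All 3 antiapoptotic genes were thus higher in the old cells by level, by 0.29 to 0.84, none of them 2-fold.

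**Figure D1:**
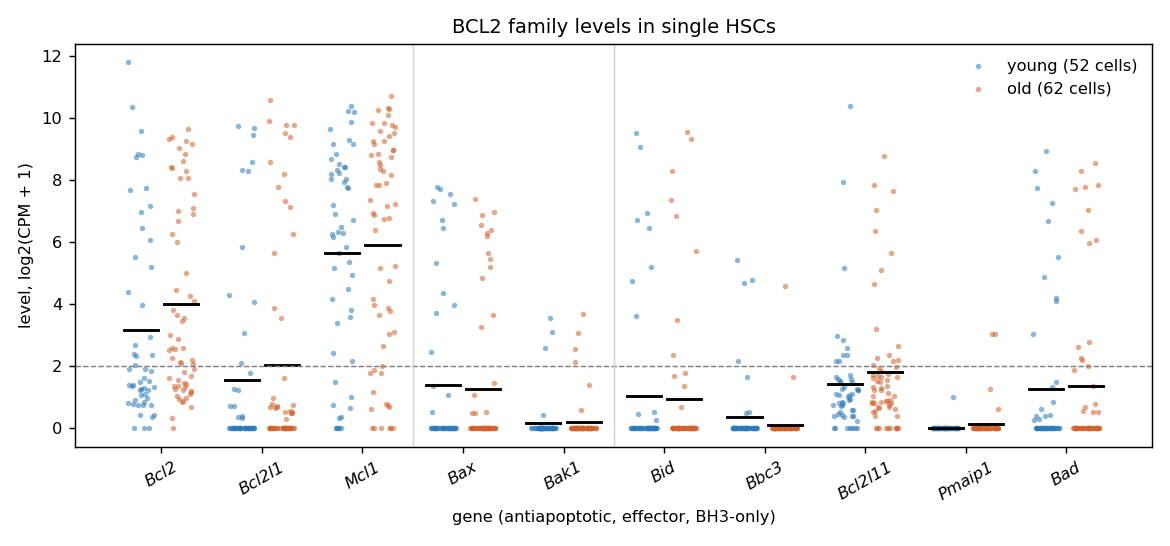
Level of each BCL2 family gene, log2(CPM + 1) on the vertical axis, in each of the 52 young (blue) and 62 old (orange) cells. Black bars mark the means, the dashed line the limit of 2 for an expressing cell, and vertical lines separate antiapoptotic, effector and BH3-only genes. *Mcl1* and *Bcl2* had reads in most cells, the other genes apart from *Bcl2l11* sat at 0 in most cells, and young and old points overlapped for every gene.

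The effector genes were less widely detected. *Bax* was at 0 in 37 of the 52 young and 44 of the 62 old cells and was expressed in 12 (23.1%, 12.5 to 36.8) and 13 cells (21%, 11.7 to 33.2). Expressing cells had medians of 94.5 and 72.3 CPM, and the highest were at 219 and 167 CPM. The *Bax* level was 1.41 in young and 1.27 in old cells, a difference of −0.14, and *Bax* was the member with the lowest difference among those that 10% or more of the cells expressed. *Bak1*, the alternative effector, had 60 reads at each age, was expressed in 3 young and 4 old cells and never exceeded 11.9 CPM. Its levels were 0.19 and 0.22, and a difference was not detectable in so few cells.

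Of the BH3-only genes, *Bcl2l11* shared the pattern of *Bcl2*, a low trace in most cells with a few high ones. At least 1 read was counted in 45 of the 52 young and 52 of the 62 old cells, with medians of 1.06 and 1.36 CPM. It was expressed in 10 young (19.2%, 9.63 to 32.5) and 15 old cells (24.2%, 14.2 to 36.7), and above 15 CPM in 3 and 8. The level was 1.44 in young and 1.81 in old cells, a difference of 0.37. One young cell, at 1315 CPM, held 76.3% of the 5883 young reads, and the summed ratio of −0.80 became 1.25 without it and 0.72 without the highest cell of each age. The sign of the *Bcl2l11* difference on summed counts therefore rested on that cell.

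*Bad* and *Bid*, whose products are controlled by phosphorylation and by caspase-8 cleavage, were found in a minority of cells at similar frequency in both ages. *Bad* was expressed in 10 young (19.2%, 9.63 to 32.5) and 14 old cells (22.6%, 12.9 to 34.97), and its levels of 1.28 and 1.35 differed by 0.07, while after thinning 13 young and 11 old cells were above the limit. *Bid* was expressed in 8 young (15.4%, 6.88 to 28.1) and 8 old cells (12.9%, 5.74 to 23.9), and its levels of 1.03 and 0.94 differed by −0.09. Both were high where present: the highest *Bad* cells reached 487 and 370.0 CPM, and the highest *Bid* cells 732 and 740 CPM. For *Bid* these single cells held 44.2% of the young and 48.6% of the old reads.

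*Bbc3* and *Pmaip1*, classical targets of p53, were nearly absent. *Bbc3* was expressed in 4 young cells (7.69%, 2.14 to 18.5) and 1 old cell (1.61%, 0.0408 to 8.66), with 272 young reads, 171 of them in 1 cell, and 14 old reads, 13 of them in 1 cell. *Pmaip1* had 1 read in young and 37 in old cells, and it was expressed in 0 of the 52 young cells, which allows a share of up to 5.77% by 3 cells of 52 and 6.85% by the exact interval, and in 2 of the 62 old cells (3.23%, 0.393 to 11.2). Its highest cell was at 7.21 CPM. The intervals of the ages overlapped for both genes, and a difference was not detectable in so few cells.

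**Figure D2:**
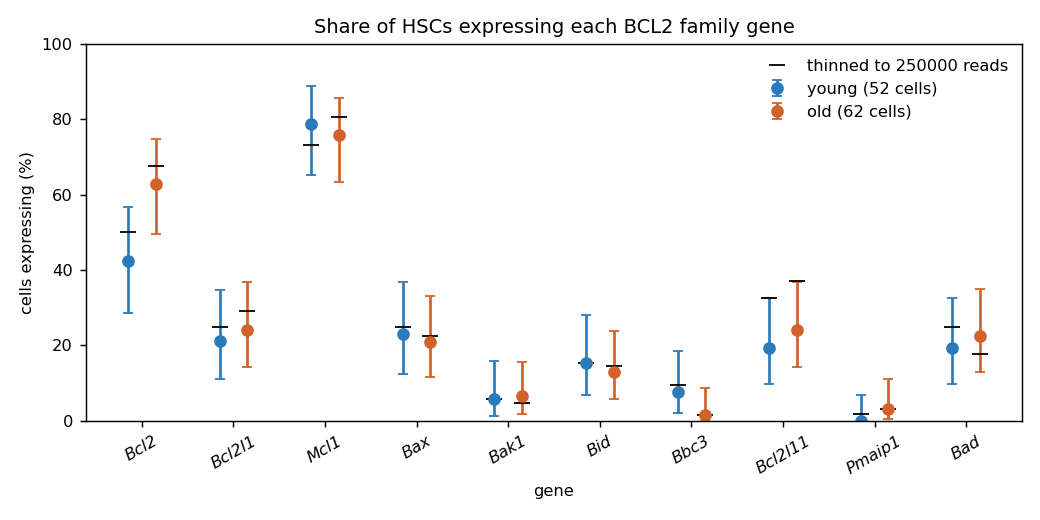
Percent of young (blue, 52) and old (orange, 62) cells that expressed each gene, with exact Clopper-Pearson 95% intervals, and the percent after thinning to 250000 reads (black dashes). The intervals of the ages overlapped for all 10 genes. The widest gap was in *Bcl2*, at 42.3% and 62.9%.

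None of the 10 genes was 2-fold higher and none 2-fold lower in old cells, where 6.24% of the 9374 genes that 10% or more of the cells expressed were 2-fold higher and 6.98% were 2-fold lower. Only 7 of the 10 met that expression minimum, with *Bak1*, *Bbc3* and *Pmaip1* below it, so with so few genes a count of 0 is near what the background gives. By sign, 7 members were higher and 3 lower, with a median difference of 0.09, beside a median of −0.07 and 45% of genes higher over the 9374. For the 7 that met the minimum, 5 were higher and 2 lower with a median of 0.29, given as a description only. In the order of differences of these genes, *Bcl2* stood 825th from the top, *Bcl2l1* 1596th, *Bcl2l11* 2105th, *Mcl1* 2518th, *Bad* 3782nd, *Bid* 4824th and *Bax* 5252nd. The quartiles of the background were −0.44 and 0.32. *Bcl2*, *Bcl2l1* and *Bcl2l11* thus lay above the upper quartile and the other 4 between the quartiles.

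Mitotic entry genes were expressed more often in young cells, and the differences were therefore recomputed in the 25 young and 49 old cells that expressed none of these 4 genes. There *Bcl2* was expressed in 9 young (36%, 17.97 to 57.5) and 32 old cells (65.3%, 50.4 to 78.3), with a difference of 1.02. The *Bad* difference grew to 1.07, with 2 young (8%, 0.984 to 26.03) and 13 old cells (26.5%, 14.9 to 41.1) expressing it, and that of *Mcl1* to 0.80, with 16 (64%) and 37 (75.5%) expressing cells. The differences of *Bcl2l1* and *Bcl2l11* were smaller there, at 0.33 and 0.11. Those of *Bid* (−0.35), *Bax* (−0.27) and *Bbc3* (−0.45) were further below 0 than in all the cells used. *Bak1* was at 0.26 and *Pmaip1* at 0.02, each expressed in 0 of these young cells. The median of the background genes was 0.06 in these cells, a smaller shift than that of *Bcl2*, *Bad* or *Mcl1*.

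Levels of different genes were compared per kilobase of exon, since long transcripts gather more reads in full-length libraries. Per kb, mean CPM was highest for *Mcl1*, at 68.8 in young and 93.4 in old cells. *Bax* (26.7 and 16.96), *Bcl2l1* (17.3 and 28.9), *Bcl2* (16.6 and 12.7), *Bid* (14.5 and 14.97) and *Bad* (11.1 and 11.5) formed a middle group whose order changed between ages. *Bcl2l11* followed at 4.64 and 2.95, *Bbc3* at 1.06 and 0.225, *Bak1* at 0.190 and 0.200, and *Pmaip1* at 0.00717 and 0.0965. By share of expressing cells, *Mcl1* stood above *Bcl2* beyond the counting intervals in young cells but not in old, and *Bcl2* stood above *Bcl2l1* beyond them in old cells but not in young. The latter depended on the limit of 3 CPM. At 15 CPM the old intervals overlapped, at 26.6 to 51.9 for *Bcl2* and 11.7 to 33.2 for *Bcl2l1*.

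Which survival genes a cell carried varied widely. At least 1 of the 3 antiapoptotic genes was expressed in 46 of the 52 young and 57 of the 62 old cells, and in these *Mcl1* was the highest per kb in 34 young (73.9%, 58.9 to 85.7) and 38 old cells (66.7%, 52.9 to 78.6). *Mcl1* was the only one of the 3 in 17 young (32.7%, 20.3 to 47.1) and 13 old cells (21%, 11.7 to 33.2), and *Bcl2* the only one in 3 and 7. All 3 were expressed together in 4 young and 8 old cells, and 2 of the 3 in 20 and 28. At least 1 effector was expressed in 15 young and 14 old cells, and at least 1 BH3-only gene in 26 young (50%) and 31 old cells (50%). No antiapoptotic gene was expressed in 6 young and 5 old cells, and of these 4 young and 2 old cells expressed an effector or BH3-only gene. Among all cells, 16 of the 52 young and 25 of the 62 old expressed neither an effector nor a BH3-only gene. Because 1 cell yields only part of its transcripts, a gene not seen in a cell may still have been transcribed there.

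The number of the 10 genes expressed per cell had a median of 2 at both ages, with a maximum of 5 in young and 7 in old cells. None was expressed in 2 young and 3 old cells, and 5 or more in 1 young and 6 old cells. The median number of antiapoptotic genes was 1 in young and 2 in old cells, and it was the same after thinning. The mean numbers were closer, at 1.42 and 1.63. These numbers rest on the limit of 3 CPM, which falls inside the low trace of *Bcl2*. Thinning does not remove this dependence, since a single read is then worth 4 CPM and passes the limit. *Bcl2* exceeded 15 CPM in only 15 of the 52 young and 24 of the 62 old cells. The median number of effectors was 0 and that of BH3-only genes 0.5 at both ages. The 2 old cells with 7 members both expressed *Bcl2*, *Bcl2l1*, *Mcl1*, *Bax*, *Bid* and *Bcl2l11*, and in addition *Bak1* in one and *Bad* in the other. One of them expressed 3645 genes in all, fewer than most old cells, and the other 5927, more than 95.2% of them.

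**Figure D3:**
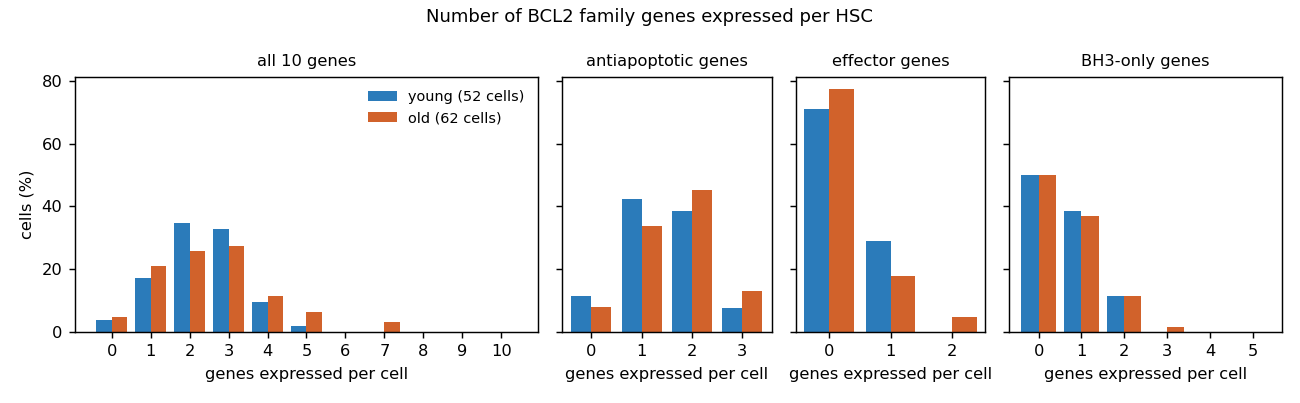
Percent of young (blue, 52) and old (orange, 62) cells by the number of genes expressed, for all 10 genes and for the antiapoptotic, effector and BH3-only genes. Most cells expressed 1 to 3 of the 10 genes, and no effector was expressed in most cells of either age.

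The levels of the members were at most weakly correlated between cells. Over the 45 pairs, Pearson's r of log2(CPM + 1) within an age ran from −0.22 to 0.43, with medians of −0.08 over 52 young and 0.04 over 62 old cells. It exceeded 0.3 for 1 pair in young cells and 4 in old cells, and for no pair in both. The young pair was *Bcl2l1* and *Bcl2l11* (0.40, and 0.22 in old cells), which only 2 young cells expressed together. The old pairs were *Bcl2l1* and *Bid* (0.43, with 6 old cells expressing both), *Bax* and *Bak1* (0.38, 3 cells), *Bak1* and *Bid* (0.34, 2 cells), and *Mcl1* and *Bad* (0.33, 12 cells). In young cells r for these pairs was −0.08, −0.07, −0.11 and −0.04. Cells share a library preparation and differ in depth, so these values are descriptions.

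*Bcl2* and *Mcl1*, the members expressed in most cells, had no close match among the 9374 genes. By the mean of the r within young and within old cells, the genes most like *Bcl2* were *Smap1* (0.35), *Mgrn1* (0.34) and *H2-DMb1* (0.33), and those most like *Mcl1* were *Eif4enif1* (0.34), *Strn3* (0.33) and *Lsm8* (0.32). These are weak in sparse counts and name neighbours only.

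Beyond the 10 members, 57 further genes of the apoptosis pathway and its regulators were listed by role, of which 55 were analysed here and 42 passed the expression minimum. Of these, 2 were 2-fold higher and 3 were 2-fold lower in old cells, beside the 6.24% and 6.98% of the background, and the median difference of the 55 was −0.06. The higher genes were *Bnip3l*, a mitophagy receptor related to the BCL2 family (5.32 in young, 6.54 in old, a difference of 1.23) and *Tnfrsf1a*, a receptor for tumour necrosis factor (1.32 and 2.50, 1.17). The lower genes were *Trp53*, which encodes p53 (7.52 and 6.24, −1.28), *Birc6*, a very large inhibitor of apoptosis protein (8.11 and 6.88, −1.23), and *Vdac1*, a channel of the outer mitochondrial membrane (4.92 and 3.80, −1.12).

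*Trp53* itself was abundant, with a median of 522 CPM in young and 146 CPM in old cells. All 3 VDAC genes were lower in old cells, with *Vdac2* at −0.95 and *Vdac3* at −0.41. Of the 5 inhibitors of apoptosis, *Xiap* (−0.86) and *Birc5* (−0.73), which also acts in mitosis, were lower beside *Birc6*, and *Birc2* (0.20) and *Birc3* (0.15) were higher. In the death receptor list, *Casp8*, the initiator caspase that cleaves BID, stayed just under the 2-fold limit (2.51 and 3.51). No gene passed the limit among the other antiapoptotic relatives, where *Bcl2l2*, which encodes BCL-W, had the largest difference (0.62), nor among the 12 genes of the apoptosome and caspases, where *Casp9* had the largest (−0.61) on 2409 young reads, 73% of them in 1 cell, and 15 old reads.

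**Figure D4:**
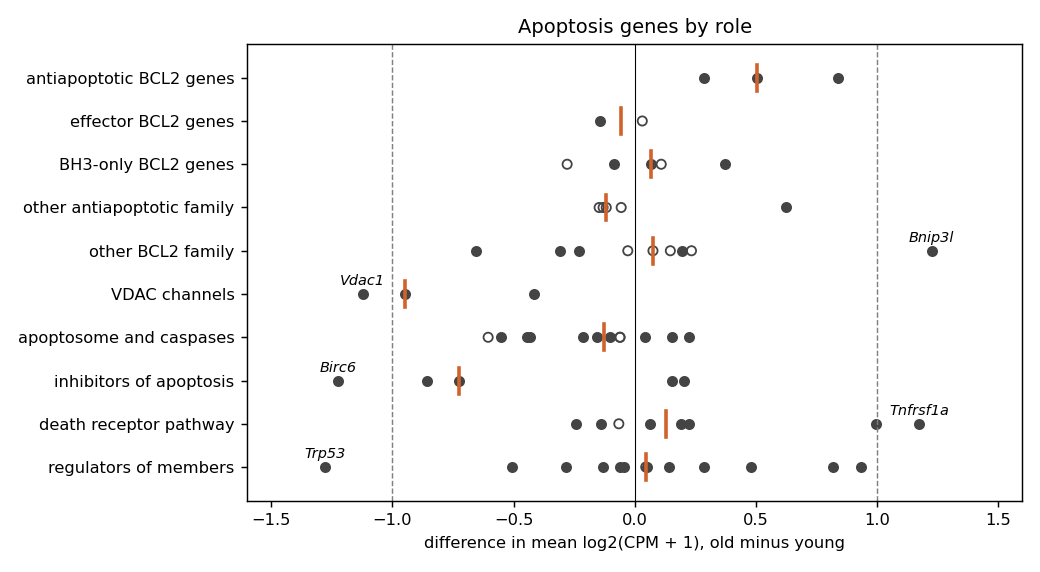
Old minus young difference of mean log2(CPM + 1) for the 10 BCL2 family genes and the 55 further genes by role. Filled circles are genes that 10% or more of the cells expressed and open circles the rest, orange bars mark the median of each list, and dashed lines the 2-fold limits. *Bcl2*, *Bcl2l1* and *Mcl1* lay to the right of 0, and the 5 named genes passed the limits. The other antiapoptotic relatives had 1 gene to the right and 4 to the left. Those 4 (*Bcl2a1a*, *Bcl2a1b*, *Bcl2a1c* and *Bcl2a1d*) were each expressed in 1 young and 0 old cells. For each of them, 1 cell held at least 99.1% of the young reads.

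Markers of other blood lineages were measured in the same cells. Median summed CPM was 0.281 in young and 0 in old cells for the B cell marker analysed here (*Cd79b*), 2.27 and 1.70 for 3 T cell markers, 0 and 0 for 2 erythroid markers, and 70.5 and 52.9 for 4 granulocyte and macrophage markers. Of the latter, *Lyz2*, which encodes lysozyme, was expressed in 43 young (82.7%) and 43 old cells (69.4%). The others were rarer, with *Itgam* expressed in 8 young and 1 old cells, *Mpo* in 2 and 1 and *Elane* in 0 and 1. By summed CPM of each list, the highest cells were at 1108 and 797, 391 and 35.6, 1459 and 15.3, and 1811 and 1564, in the order of the lists above. The 6 megakaryocyte and platelet markers, which include *Vwf*, had median summed CPM of 58.2 and 195. By level, 3 of them were higher in old cells, *Vwf* (0.85), *Gp9* (0.80) and *Pf4* (0.71). The 3 others were slightly lower, *Ppbp* (−0.15), *Itga2b* (−0.05) and *Gp1bb* (−0.03). The part of these differences in the values above was not tested.

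Positions limit what the counts can separate. On GRCm38, *Mcl1* lies on chromosome 3 (95656944 to 95663179), *Bcl2* on chromosome 1 (106538176 to 106714290) and *Bcl2l1* on chromosome 2 (152758732 to 152833803). *Bax* on chromosome 7 shares 22.1% of its exonic bases with *Gm45808* on the same strand. *Bad* shares 21.6% with *Gpr137*, *Bak1* 10.7% with *Ggnbp1* and *Bcl2* 6.09% with *D630008O14Rik*, each on the opposite strand. No source used here says that strand entered the counting, so reads from these stretches cannot be assigned with certainty.

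In all 10 other settings, *Mcl1*, *Bcl2l1* and *Pmaip1* were higher and *Bax* and *Bbc3* lower in old cells, with ranges of 0.07 to 0.80, 0.33 to 0.82, 0.02 to 5.42, −0.79 to −0.07 and −4.07 to −0.17. Among these settings, *Bcl2* and *Bcl2l11* were lower on summed counts alone, and *Bak1*, *Bid* and *Bad* changed sign under at least 1 setting. In a further setting, added after seeing the data, levels of at most 15 CPM were set to 0. There *Pmaip1* and *Bak1* were at 0, *Mcl1* was at 0.097 and *Bad* at −0.05, and the remaining members kept their sign.

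**Figure D5:**
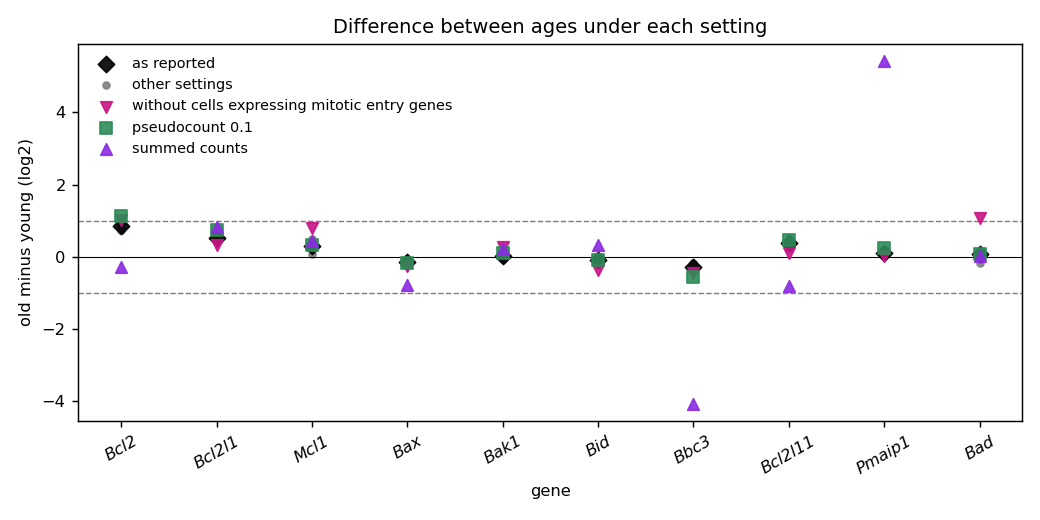
Difference, old minus young on the log2 scale, of each gene as reported (black diamonds) and under 10 other settings, with summed counts (triangles), a pseudocount of 0.1 (squares) and cells without mitotic entry genes (inverted triangles) marked. Dashed lines are the 2-fold limits. Most settings fell close together, and the widest departures were the summed counts of *Bbc3* (272 against 14 reads) and *Pmaip1* (1 against 37 reads).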

How the data were processed

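Polyadenylated RNA of single cells was amplified as full-length cDNA and sequenced as single reads of 51 bases, without molecular identifiers. The authors mapped reads with TopHat2 2.0.10 to mm10, counted them on RefSeq genes with rpkmforgenes (version not given in the sources used here) and deposited counts per gene and cell, without normalization. Cells were selected by the limits of the study (at least 500000 mapped reads, at most 10% mitochondrial reads and 3000 or more genes with RPKM 1 or higher), read from the study's sheet of quality values per cell.

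CPM, log2(CPM + 1), shares and intervals (95%, exact Clopper-Pearson) were computed with Python 3.11.15, numpy 2.4.6, pandas 2.3.3 and scipy 1.17.1. A share of 0 allows 3 cells of the number examined. Alternative scalings were TMMwsp of edgeR 4.0.16 and poscounts of DESeq2 1.42.0, used for factors only. The scripts were tested on simulated data. Cells of 1 mouse are not replicates, so no p-value was computed. Exon lengths came from the GENCODE vM21 basic annotation, and promoters (9 of 10 genes matched) from RefSeq GRCm38.p6.

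A gene of the lists is not reported here and was left out of their counts. The members were given by name, and the other gene lists were written with earlier results of these data known. The text names all members and, of each pathway list, the genes past 2-fold among those expressed in at least 10% of the cells, otherwise the gene with the largest difference, together with the 3 genes most like each member expressed in 50% or more of the cells. *Vdac2*, *Vdac3*, *Casp8* and the inhibitors other than *Birc6* were added after their values were seen. Alternatives covered the cells used, pseudocount, scaling, thinning, summed counts and the limit for an expressing cell. Setting levels of at most 15 CPM to 0 was added after seeing the data.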

Additional observations from a re-analysis of the deposited data

How the results depend on the processing

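No paired analysis was possible because each age was 1 mouse and no result comes from a test; no replicate could be left out. Of 100 differences of members under the other settings, 94 moved by less than 1.5 times, and of 140 shares 120 stayed in their interval. The count of members 2-fold higher in old cells, 0 as reported, was 2 in cells expressing none of the mitotic entry genes (*Bcl2* and *Bad*), 1 with a pseudocount of 0.1 (*Bcl2*, 1.12) and 1 on summed counts (*Pmaip1*, from 1 and 37 reads). The count 2-fold lower, also 0, was 1 on summed counts (*Bbc3*, −4.07). When 1 counted read was enough, the median number of members expressed was 4 in young and 4 in old cells. Without the expression minimum, 3.87% of all genes were 2-fold higher and 4.44% lower. The median of the background genes moved most with a pseudocount of 0.1, to −0.11, and in cells without mitotic entry genes, to 0.06. *Bak1*, *Bbc3* and *Pmaip1* had at most 272 reads per age, which limits the precision of their values. The causes of these shifts were not tested beyond the cells named in the report.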
